A study of Mus musculus with 17 samples.

Results

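The genes described here encode the nuclear subunits of the mitochondrial respiratory chain and the ATP synthase. They were taken as every probe set of both array types that is annotated to 1 symbol beginning with Nduf, Sdh followed by a to d, Uqcr, Cox4 to Cox8 or Atp5, or to Cycs or Cyc1, with assembly factors and pseudogenes left out. This gave 65 probe sets of 57 genes, of 13069 probe sets in all, with 49 on the array type called chip A and 16 on chip B. Complex I had 21 probe sets (20 genes), complex II 3 (3 genes), complex III 8 (8 genes), cytochrome c 2 (1 gene), complex IV 16 (12 genes) and complex V 15 (13 genes). Probe sets for Ndufs5, Cox6c and Cox5b that also carry a second symbol were left out, although Cox6c has another probe set of its own. The subunits encoded in mitochondrial DNA had 0 probe sets on these arrays.

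The respiratory chain passes electrons taken from food to oxygen. Complex I and complex II collect them from NADH and succinate, complex III hands them to cytochrome c, and complex IV reduces oxygen, while complexes I, III and IV pump protons out of the mitochondrial matrix. Complex V, the ATP synthase, lets the protons back in and makes ATP. Liver and brain both depend on this route, the hepatocyte to run gluconeogenesis, urea synthesis and fat oxidation and the neuron to maintain its ion gradients.

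RNA came from male Rj:NMRI mice, an outbred stock, all given the same purified base diet for 57 or 58 days. The fungal oil diet held 1.1% of an arachidonate-rich oil (0.5 wt% arachidonate), the fish oil diet held 1.9% of an oil rich in docosahexaenoate (0.5 wt%), the combined diet held both oils, and the control diet held neither, with medium chain triacylglycerol oil making up the difference. Of 10 mice fed each diet, 5 were selected, and liver and hippocampus were taken from the same 5. The liver gave 1 RNA for fungal oil, 1 for fish oil, 1 for both oils and 2 for control, and the hippocampus gave 1 RNA for each of these 4 diets. The hippocampus of mice fed both oils was analysed on chip B alone, so there were 17 arrays, and whether an RNA pooled several mice is not stated.

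Values are the deposited intensities, in arbitrary units, which can be negative, and the level of a probe set is not comparable with that of another probe set. The trimmed mean of the arrays lay between 146.1 and 149.4, and values under a floor of 15 were set to it before taking log2. Between 31.4% and 42.9% of the probe sets of a liver array, and between 28.8% and 40.2% of those of a hippocampus array, were at the floor. The tissue labels held: 12 of 12 hepatocyte marker genes were higher in liver and 12 of 12 neuron marker genes that passed the brightness filter were lower. Gapdh signal at the 3-prime end over that at the 5-prime end, a measure of RNA quality that is higher in broken RNA, was 1.89 to 3.26 in liver and 0.840 to 0.947 in hippocampus. In these bulk tissues fewer cells of a type and less RNA per cell cannot be told apart.

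Most of the genes were bright. In liver 55 of the 65 probe sets (51 genes) reached the median brightness of their chip and were tested, in hippocampus 54 (50 genes), and over both tissues 53 (49 genes). They were also steady between the 2 liver control RNAs, where the median size of the log2 difference was 0.10, against 0.24 for the other tested probe sets. Of the 55 tested, 49 (89.1%) lay within 1.25-fold of each other in the controls, against 61.0% of the others. A bright probe set is measured more precisely, and the part of brightness in this steadiness was not tested.

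Promoters of 46 of the 57 genes were found in a RefSeq table of 27025 mouse genes, each 300 bases long (250 before the start and 50 after). Motifs of 3 factors known for nuclear genes of mitochondrial proteins were searched on both strands: GCGCATGC for NRF1, CCGGAAG for the ETS family, to which GABP belongs, and AAGATGGC for YY1. NRF1 letters were found in 8 of the 46 genes (17.4%), against 3.05% of all genes in the table. ETS letters were found in 12 (26.1%), against 9.93%, and YY1 letters in 5 (10.9%), against 3.19%. A gene counted if any of its promoter windows held the letters, and the genes of the table were not limited to those on the arrays. These matches describe the letters and do not show that a factor binds. The 100 bases before the start are shown for 4 genes whose values are given below, 5′ to 3′ along the gene's strand, with the motif found there in capitals (RefSeq, GRCm38.p6). They are Cycs (chr6:50566570-50566669, minus strand, the NRF1 motif on the opposite strand), Sdhb (chr4:140961171-140961270, plus strand, the NRF1 motif on the opposite strand), Atp5j (chr16:84834977-84835076, minus strand, the YY1 motif and then the ETS motif) and Uqcr11 (chr10:80406822-80406921, minus strand, the ETS motif). Sdhb also holds an ETS match and Uqcr11 an NRF1 match in the rest of the 300 bases.
Cycs: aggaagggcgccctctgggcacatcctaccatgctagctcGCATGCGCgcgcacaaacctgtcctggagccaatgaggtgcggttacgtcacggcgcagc
Sdhb: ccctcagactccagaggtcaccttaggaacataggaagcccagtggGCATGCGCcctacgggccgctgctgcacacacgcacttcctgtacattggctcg
Atp5j: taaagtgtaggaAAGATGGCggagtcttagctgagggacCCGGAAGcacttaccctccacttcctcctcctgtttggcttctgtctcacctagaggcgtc
Uqcr11: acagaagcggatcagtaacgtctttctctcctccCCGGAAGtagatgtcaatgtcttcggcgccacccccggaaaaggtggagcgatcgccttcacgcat

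In liver, respiratory chain transcripts stayed close to control on all 3 oil diets. The median log2 difference over the genes was 0.05 with fungal oil, 0.07 with fish oil and 0.02 with both oils, against -0.01, 0.01 and 0.05 over all tested probe sets. Within 1.25-fold of the control mean lay 49, 45 and 48 of the 55 probe sets with fungal oil, fish oil and both oils, where 58.7%, 53.8% and 55.4% of all tested probe sets did. Between the 2 controls themselves 89.1% of the members lay that close, against 61.0% of the other tested probe sets. The part of brightness in these shares was not tested. No member was called by limma at an adjusted p under 0.05 on any diet, and 0 of the 6537 probe sets tested were (0%). The test has 1 residual degree of freedom, from the control pair. At an unadjusted p under 0.05 there were 2 members with fungal oil (background 9.16%), 4 with fish oil (11.1%), 3 with both oils (9.90%), 3 for the mean of the 3 oils (11.5%) and 3 between fungal and fish oil (8.99%). The labels do not say that the control RNAs came from separate animals, so the p-values measure only the spread between them, which may be technical. Mice were housed 10 to a cage, and cage and day of death cannot be told apart from diet.

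**Figure D1:**
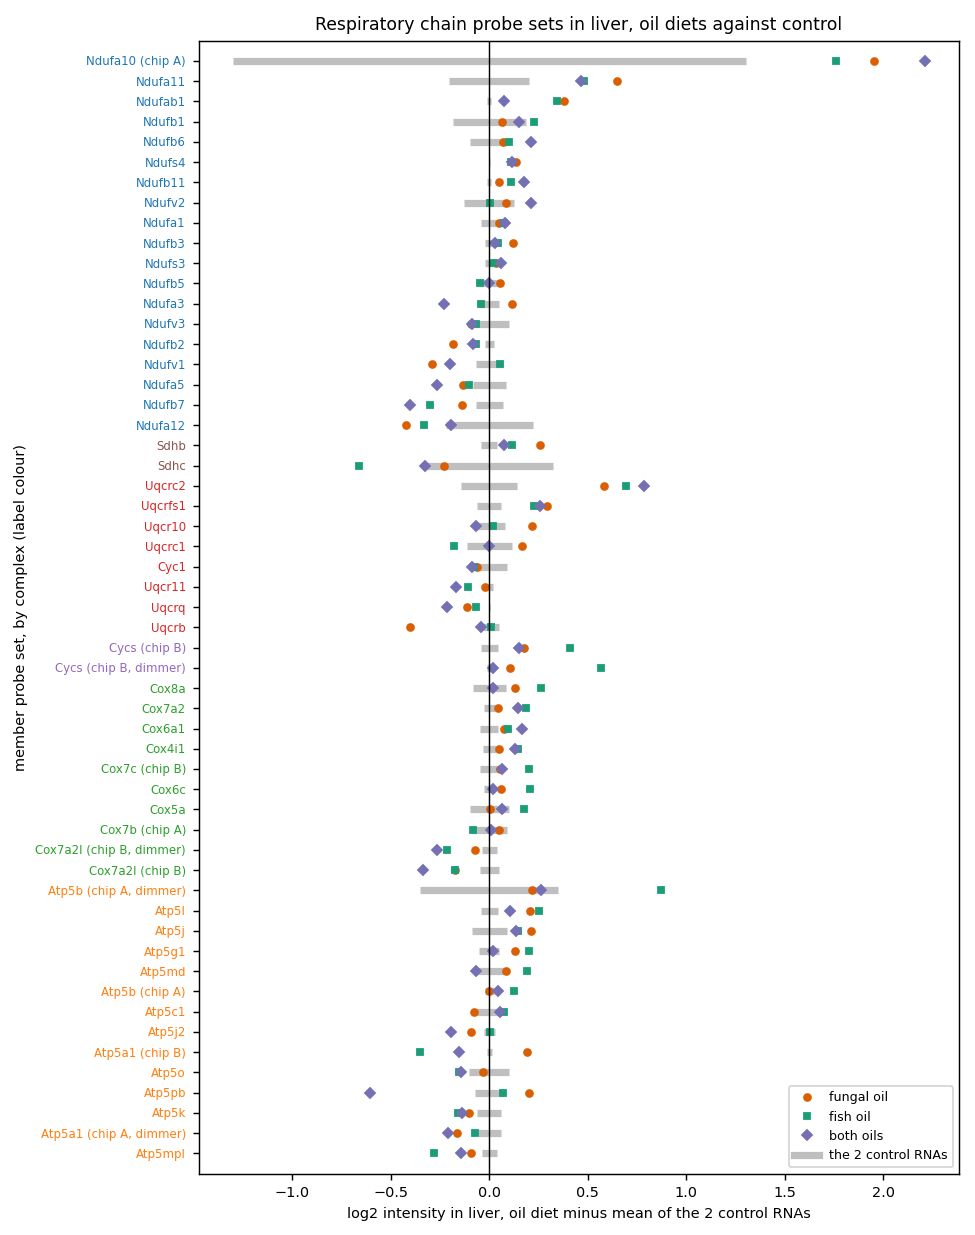
Log2 intensity of the 55 tested respiratory chain probe sets in liver on fungal oil (circles), fish oil (squares) and both oils (diamonds), minus the mean of the 2 control RNAs, whose values span the grey bars; label colour gives the complex. Most points lie within 0.3 of 0, and the Uqcrc2 points lie at 0.58, 0.69 and 0.78, outside its control bar.

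Without a test, the 3 oil RNAs all lay above both controls in 18 of the 55 probe sets, where 12.5% of all tested probe sets did so, and all below both controls in 10, where 11.9% did. Among the brighter probe sets, those at or above the 75th percentile of their chip, 16 of 52 members lay above (background 15.1%) and 10 below (12.3%). The 18 were spread over complex I (Ndufa1, Ndufa10, Ndufa11, Ndufab1, Ndufb3, Ndufb11 and Ndufs4), complex II (Sdhb), complex III (Uqcrc2 and Uqcrfs1), cytochrome c (both Cycs probe sets), complex IV (Cox4i1, Cox6a1, Cox7a2 and Cox7c) and complex V (Atp5j and Atp5l). The 10 below were Ndufa5, Ndufb2, Ndufb7, Uqcr11, Uqcrq, both Cox7a2l probe sets, Atp5k, Atp5mpl and the chip A probe set of Atp5a1. All 3 oils are set against the same control pair, so the same control values enter every one of these counts.

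Complex III held the member whose mean over the oils lay farthest from control apart from the dim Ndufa10. Uqcrc2, a core subunit of the complex, read 516 with fungal oil, 559 with fish oil and 595 with both oils, against 313 and 381 in the controls. All 3 oil RNAs exceeded both controls. The mean of the oils was 1.61-fold above control, a log2 difference of 0.69 (SE 0.13) that did not pass (limma adjusted p = 0.388), and 0.54 or 0.83 against either control by itself. In hippocampus the same probe set read 645 with fungal oil and 597 with fish oil, against 555 in the control. Uqcrfs1, the Rieske iron-sulfur protein, read 1574, 1502 and 1532 in liver on fungal oil, fish oil and both oils, against 1230 and 1338 in the controls (0.26 for the mean of the oils, SE 0.07, limma adjusted p = 0.428). Its oil values again lay above both controls. Uqcrb, a small subunit, read 670 with fungal oil and 892 and 862 with fish oil and both oils, against 917 and 857 in the controls. Only the fungal oil RNA was low (-0.40, SE 0.10, limma adjusted p = 0.522). Uqcrq, which sits beside cytochrome b, read 3657, 3770 and 3405, against 3945 and 3966 in the controls, so all oil values were lower, the lowest with both oils (-0.22).

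Cytochrome c, the small carrier between complexes III and IV, was read by a pair of probe sets on chip B. Of the pair, the brighter is of a kind that can bind several related transcripts. The brighter one read 1807 with fungal oil, 2127 with fish oil and 1780 with both oils, against 1650 and 1555 in the controls. The dimmer one read 1040, 1435 and 980, against 960 and 976 in the controls. Both were highest with fish oil, and both lay above the controls on every oil diet. With fish oil the log2 differences were 0.41 and 0.57 (SE 0.12 for the dimmer, limma adjusted p = 0.405). Fungal oil lay below fish oil by 0.24 and 0.46 (limma adjusted p = 0.637 and 0.547). The fish oil array of chip B had a Gapdh 3-prime to 5-prime ratio of 3.26, against 1.92 to 2.51 on the other liver arrays of that chip. Its ratio for beta-actin was 3.33, within the 3.32 to 4.17 of the others. The part of this array difference in the fish oil values was not tested. In hippocampus the brighter probe set read 1227, 1412 and 1352, against 1314 in the control, which lay within the range of the oil values. The dimmer read 1173, 1289 and 1238, against 1169, so its oil values all lay above that control.

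Among the complex I subunits, Ndufb7, an accessory subunit on the intermembrane side, read 977 with fungal oil, 873 with fish oil and 816 with both oils, against 1131 and 1026 in the controls. All 3 oil values lay below both controls (-0.28 for the mean of the oils, SE 0.08, limma adjusted p = 0.430). Ndufab1, the mitochondrial acyl carrier protein, read 178, 174 and 144, against 136 and 138 in the controls, and was above both on each oil (0.26, SE 0.12, adjusted p = 0.528). Ndufs4, an accessory subunit of the electron-input part of the complex, read 849, 836 and 839, against 772 and 775 in the controls, so the groups did not overlap although they differed by 1.09-fold. Ndufv1, which binds NADH and FMN, read 612 with fungal oil, 778 with fish oil and 653 with both oils, against 787 and 715 in the controls, with the fungal oil value the lowest (-0.29, adjusted p = 0.636). Ndufb2 read 1106 with fungal oil, against 1235 and 1275 in the controls (-0.18, adjusted p = 0.635). Ndufa11 was dim, at 83, 74 and 73, against 61 and 46 in the controls, and its oil values lay above (0.53, SE 0.25, adjusted p = 0.542). Ndufa10 had the largest fitted difference, 1.97 (SE 0.96, adjusted p = 0.546), which rests on a single control. It read 143, 125 and 171 on fungal oil, fish oil and both oils, against -176 and 91 in the controls, and without the first control the value was 0.67.

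Complex II had 3 probe sets, of which 2 were tested. Sdhb, the iron-sulfur subunit that passes electrons to ubiquinone, read 1834 with fungal oil, 1662 with fish oil and 1613 with both oils, against 1578 and 1491 in the controls, and lay above both on each oil (0.15, SE 0.06, limma adjusted p = 0.519). Sdhc, a membrane anchor, was dim, at 92, 68 and 86, against 135 and 86 in the controls. Its controls differed more from each other than the fungal oil value did from their mean. Sdhd, the other anchor, read 37 in the liver of mice fed both oils and was below the floor in every other liver and hippocampus RNA.

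Complex IV moved little. Cox4i1, a regulatory subunit, read 8015 with fungal oil, 8578 with fish oil and 8493 with both oils, against 7938 and 7574 in the controls, and all oil values were the higher (0.11 for their mean, SE 0.10, limma adjusted p = 0.704). Of the 10 tested probe sets, 7 had a positive mean over the oils, and the median was 0.10. Cox7a2l, which helps to join complexes III and IV into supercomplexes, went the other way on both of its probe sets. The brighter read 606, 607 and 542 on fungal oil, fish oil and both oils, against 707 and 662 in the controls, and the dimmer read 641, 581 and 561, against 657 and 693. Every oil value lay below both controls, by -0.23 (SE 0.10) and -0.19 (SE 0.10) on average (adjusted p = 0.527 and 0.571). Both probe sets are of a kind that can bind several related transcripts, as are 18 of the 65. Those of Sdhb, Ndufab1, Cox4i1 and Atp5j2, both of Atp5a1 and the chip B probe set of Cox7c are among the 18.

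In complex V, 7 of the 14 tested probe sets had a positive mean over the oils and 7 a negative one, with a median of -0.04. Atp5pb, a peripheral stalk subunit, read 274 with fungal oil, 250 with fish oil and 157 with both oils, against 227 and 251 in the controls, so the combined diet alone was low (-0.60, SE 0.21, limma adjusted p = 0.531). Atp5mpl, a small membrane subunit, read 1956, 1720 and 1890, against 2145 and 2034 in the controls, and was below both throughout (-0.28 with fish oil, SE 0.08, adjusted p = 0.438). Atp5a1, the alpha subunit, read 5533 with fungal oil, 3796 with fish oil and 4353 with both oils on chip B, against 4800 and 4891 in the controls. Its chip A probe set read 2413, 2573 and 2338, against 2603 and 2819. The fish oil value was the lowest of the 5 on chip B and lay close below the controls on chip A, so the probe sets did not show the same order. Atp5b, the catalytic beta subunit, likewise had a bright probe set that hardly moved, at 3254, 3552 and 3355, against 3203 and 3304 in the controls. Its dim probe set read 182, 287 and 188, against 200 and 123.

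No macrophage marker was called in liver on the oil diets. All 10 tested genes of that list had a lower mean over the oils than in the controls, with a median of -0.45 and 5 at an unadjusted p under 0.05 (background 11.5%). With fish oil alone Lyz2 was above the control mean (0.25), and Marco was at the floor in every liver RNA. Their summed intensity on chip A was 869 with fungal oil, 1156 with fish oil and 1072 with both oils, against 1383 and 1443 in the controls, and on chip B it was 655, 542 and 724, against 958 and 826. Hepatocyte markers had a median of 0.05 for the mean of the oils, and 0.01, 0.17 and -0.07 with fungal oil, fish oil and both oils. With fish oil 3 of 12 had an unadjusted p under 0.05, all higher (background 11.1%). Their summed intensity on chip A was 36475, 43542 and 33311, against 35919 and 36560 in the controls. On chip B it was 61737, 68690 and 63157, against 65093 and 54856. The part of either marker list in the values above was not tested.

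**Figure D2:**
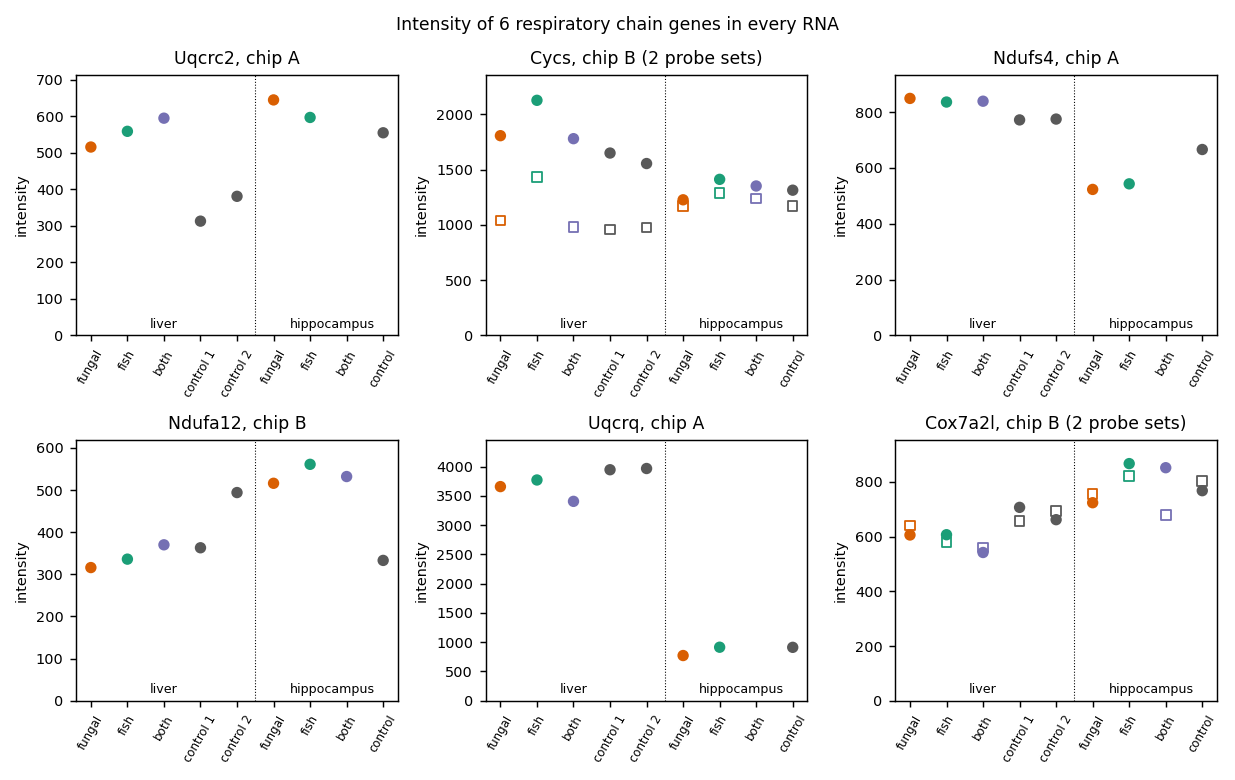
Deposited intensity of Uqcrc2, Cycs, Ndufs4, Ndufa12, Uqcrq and Cox7a2l in every RNA, with liver left of hippocampus and oil diets left of control in each panel; open squares are the dimmer of a gene's 2 probe sets, and chip A has no array for the hippocampus with both oils. Uqcrc2 read 516 to 595 in liver on oil diets against 313 and 381 in liver controls, and Uqcrq read 3405 to 3966 in liver against 772 to 914 in hippocampus.

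The hippocampus has 1 RNA per diet, so its differences carry no test. With fungal oil the median over the genes was -0.08 and 38 of 54 probe sets lay below the control array, where 50.1% of all tested probe sets did. With fish oil the median was -0.04 and 30 of 54 lay below (background 45.4%). With both oils, on chip B alone, the median was 0.03 and 6 of 14 lay below (background 49.3%). At least 1.5-fold from control were 2 members with fungal oil, 2 with fish oil and 1 with both oils, where 14.2%, 15.0% and 15.9% of all tested probe sets were. The same control array enters all 3 ratios.

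Ndufa12, an accessory subunit of complex I, was the 1 member that stood at least 1.5-fold from control on every oil diet. It read 516 with fungal oil, 561 with fish oil and 532 with both oils, against 333 in the control (0.63, 0.75 and 0.68). Every oil value was high against that single control array. Ndufv3, which belongs to the NADH-oxidising part of complex I, read 544 with fungal oil and 606 with fish oil, against 765 in the control (-0.49 and -0.34). Ndufs4 read 523 and 543, against 666 (-0.35 and -0.29). These 2 genes led the falls with fish oil, and with fungal oil they followed Cox8c, a cytochrome c oxidase isoform known from testis, which read 44 with fungal oil and 77 with fish oil, against 86 in the control. The fungal oil value was the low one (-0.97), on a dim probe set. Atp5k, a small subunit of the ATP synthase, read 923 and 999, against 1157 in the control, and both oil values were lower. Atp5j, a stalk subunit, read 1004 and 978, against 835 in the control, and both were higher (0.27 and 0.23). The dim Atp5b probe set read 55 and 87, against 53 in the control, while the bright one read 3689 and 3607, against 3226.

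**Figure D3:**
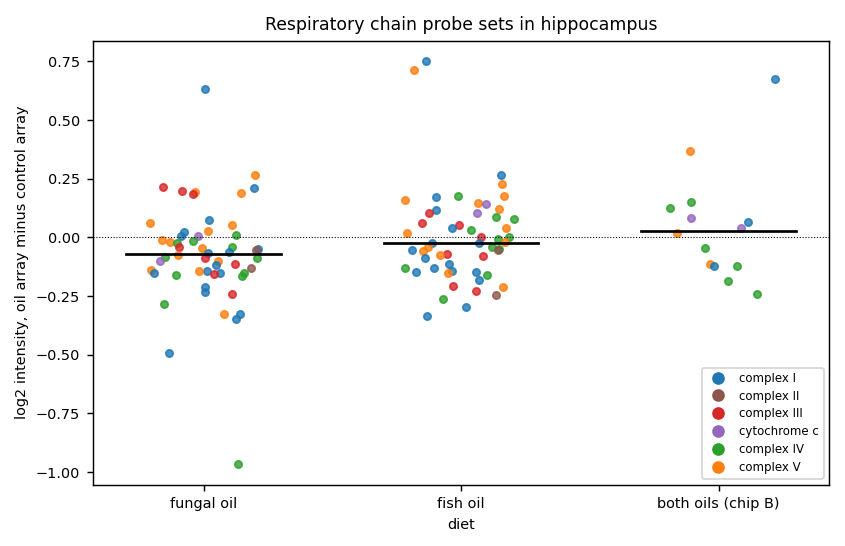
Log2 intensity in hippocampus of each tested respiratory chain probe set on fungal oil, fish oil and both oils (chip B alone), minus the control array of the same chip; black lines are medians over probe sets and colour gives the complex. Most points lie within 0.3 of 0, with Ndufa12 at 0.63, 0.75 and 0.68 above them and Cox8c at -0.97 below them with fungal oil.

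Whether the mean effect of the oils differed between the tissues was tested as an interaction, liver minus hippocampus, with the oil diets taken as replicates of any oil. No member of 53 was called, where 3 of 6535 probe sets were (0.0459%), and 7 had an unadjusted p under 0.05 (background 6.64%). The largest was Ndufa12, at -1.003 (SE 0.26, limma adjusted p = 0.341). It read 316, 336 and 370 in liver on fungal oil, fish oil and both oils, against 363 and 494 in the liver controls, so on average the tissues ran in opposite directions. Ndufs4 also ran in opposite directions, higher in liver and lower in hippocampus on the oils as given above (0.44, SE 0.11, adjusted p = 0.339). Uqcrc2 (0.53), Uqcrfs1 (0.42), Sdhb (0.34) and Ndufb7 (-0.40) had adjusted p-values of 0.658, 0.540, 0.739 and 0.745. The hippocampus side of each value rests on 1 control RNA.

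Between the tissues, respiratory chain genes tended to read higher in liver, while the median probe set read lower. Of 53 probe sets 45 were higher in liver and 8 lower, and the median over the genes was 0.58 on the log2 scale, against -0.24 over all tested probe sets. With a limit of 2-fold beside an adjusted p under 0.05 (limma, with diet in the fit), 12 members rose and 0 fell, where 20.3% of all tested probe sets were called higher and 29.6% lower. The share of members called higher was thus close to the background. By adjusted p alone, 39 were higher (background 29.8%) and 3 lower (40.0%). All liver values lay above all hippocampus values in 37 (27.9%) and all below in 2 (38.8%), and 14 overlapped. The tissue fit has 3 residual degrees of freedom on chip A and 4 on chip B. Its p-values measure the spread of the RNAs around tissue and diet, including the liver control pair, whose spread may be technical. They do not measure a spread between animals of a diet. Tissue and array run cannot be told apart, and the 3-prime to 5-prime ratios given above differ between the tissues in the same arrays, whose part in these values was not tested.

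These counts depend on how the arrays are scaled. With quantile normalization the median of all tested probe sets moved to -0.01, while 30 members were higher and 23 lower in liver. Of the members, 6 were called higher (background 24.3%) and 2 lower (24.8%), and the members' median was 0.13. With arrays centred on their medians, a choice made after seeing the data, 52 were higher and 1 lower, and the median was 0.90. In that setting 20 members were called, all higher, where 26.0% of all tested probe sets were called higher and 23.7% lower. Positive under all 3 scalings were 30 of 53, where 2706 of 6484 probe sets in all were. Called higher under all 3 were 6 of 53, where 19.8% of all probe sets were: Uqcrq, Uqcr10, Uqcrfs1, Uqcrb, Atp5pb and the dim probe set of Atp5b.

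**Figure D4:**
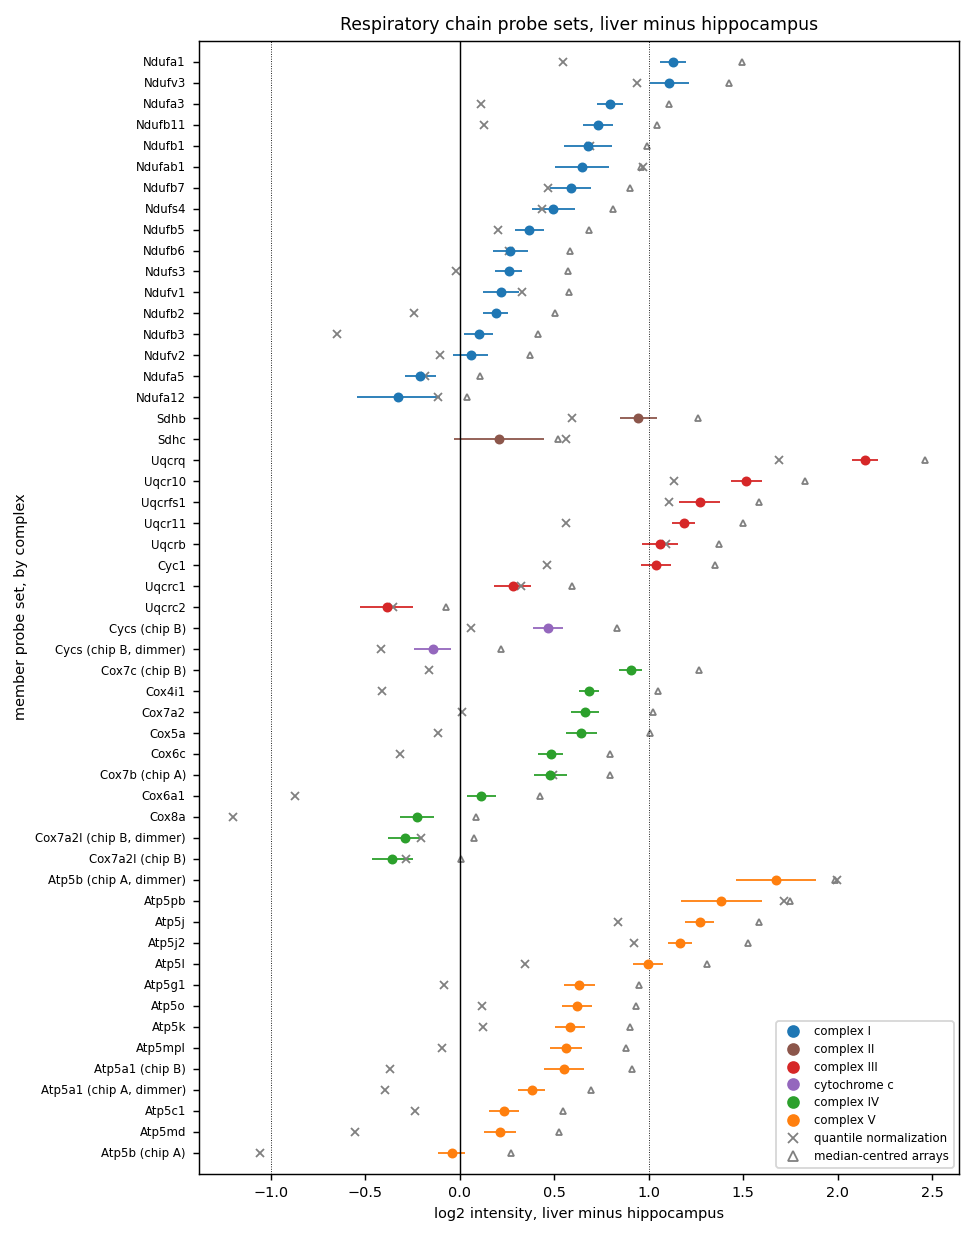
Log2 intensity in liver minus hippocampus for the 53 tested respiratory chain probe sets, grouped by complex: filled circles are the limma estimates with their standard errors, crosses the values after quantile normalization and triangles those with arrays centred on the median. Dotted lines mark 2-fold; 6 of the 8 complex III probe sets lie beyond it on the right, and 8 of the 10 crosses of complex IV lie below 0.

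Complex III stood highest, with 6 of its 8 probe sets called and a median difference of 1.12. Uqcrq read 3657, 3770, 3405, 3945 and 3966 in liver (fungal oil, fish oil, both oils and the 2 controls), against 772, 914 and 912 in hippocampus (fungal oil, fish oil and control). The groups lay far apart (2.15, SE 0.07, limma adjusted p = 1.19e-06). Uqcr10 averaged 2401 ± 206 in liver and 873 ± 121 in hippocampus (SD over RNAs, n = 5 and 3), a difference of 1.51 (SE 0.08). These RNAs differ in diet, and 2 of the liver RNAs are the control pair. Uqcrfs1 averaged 1435 ± 145 in liver and 595 ± 47 in hippocampus (1.27, SE 0.11). Cyc1, the haem subunit that reduces cytochrome c, averaged 2254 ± 123 in liver and 1108 ± 82 in hippocampus (1.04). Of the small subunits, Uqcr11 read 2347 to 2676 in liver and 1110 to 1172 in hippocampus (1.18), and Uqcrb read 670 to 917 in liver and 380 to 411 in hippocampus (1.06). Adjusted p-values of these 5 by limma lay between 1.02e-05 and 1.24e-04. None of the liver ranges reached the hippocampus ranges. After quantile normalization Uqcr11 (0.56) and Cyc1 (0.46) were under 2-fold. The core subunits were different. Uqcrc1 read 498 to 633 in liver and 444 to 505 in hippocampus, and Uqcrc2 averaged 472.8 ± 120.6 in liver and 599 ± 45 in hippocampus (-0.39, SE 0.14, adjusted p = 0.0483, but 0.137 without diet in the fit, and -0.07 with centred arrays). Its liver values lay in the hippocampus range of 555 to 645 with fish oil and both oils, and below it with fungal oil and in the controls.

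In complex V, 4 of 14 tested probe sets were called, all higher in liver, and the median difference was 0.60. Atp5j averaged 2202 ± 168 in liver and 939 ± 91 in hippocampus (1.27, SE 0.07), and Atp5j2, a membrane subunit, averaged 1989 ± 120 in liver (n = 5) and 894 ± 36 in hippocampus (n = 4), with a difference of 1.16. Both were under 2-fold after quantile normalization (0.84 and 0.92). Atp5pb averaged 231.8 ± 45.0 in liver and 89.3 ± 9.6 in hippocampus (1.38, SE 0.21, limma adjusted p = 9.40e-04). The dim Atp5b probe set was called (1.67, SE 0.21), at 123 to 287 in liver and 53 to 87 in hippocampus, whereas the bright one read 3203 to 3552 in liver and 3226 to 3689 in hippocampus (-0.04, limma adjusted p = 0.606). After quantile normalization the bright one was called lower in liver (-1.06), and with centred arrays it was at 0.27. A gene with probe sets so unlike gives no single answer. Atp5d, the delta subunit, was below 0 on every array of both tissues.

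Complex I had 2 of 17 called. Ndufa1, a small membrane subunit, averaged 3324 ± 109 in liver (n = 5) and 1542 ± 86 in hippocampus (n = 4), a difference of 1.13 (SE 0.07). Ndufv3 averaged 1376 ± 83 in liver and 638 ± 114 in hippocampus (1.11, SE 0.10). Both were under 2-fold after quantile normalization (0.54 and 0.94). Over the complex 15 of 17 were higher in liver, by a median of 0.37. Ndufa12 (-0.32, limma adjusted p = 0.218) and Ndufa5 were the exceptions, and Ndufb3 and Ndufv2 lay close to 0. Of complex II, Sdhb read 1491 to 1834 in liver and 792 to 940 in hippocampus (0.95, SE 0.10, adjusted p = 2.54e-04). It missed the 2-fold limit. For cytochrome c the brighter probe set was higher in liver (0.47, adjusted p = 0.00156) and the dimmer was not (-0.14, adjusted p = 0.225).

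Complex IV had 0 of 10 called, although 7 were higher and the median was 0.48. Cox7c averaged 7217 ± 456 in liver and 3954 ± 323 in hippocampus on chip B (n = 5 and 4), the largest difference of the complex (0.90). Cox4i1 averaged 8120 ± 416 in liver and 5157 ± 78 in hippocampus (0.69). After quantile normalization Cox4i1 and Cox7c were no longer positive, at -0.41 and -0.17. Cox8a averaged 3682 ± 332 in liver and 4432 ± 60 in hippocampus (-0.23, limma adjusted p = 0.0622), and was -1.20 and called after quantile normalization but 0.09 with centred arrays. Both Cox7a2l probe sets were lower in liver (-0.36 and -0.29, adjusted p = 0.0228 and 0.0235), under 2-fold, and near 0 with centred arrays (0.0047 and 0.0728).

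Complex IV has subunits with tissue-type isoforms, and the arrays carry several. The widely expressed Cox6a1 read 3547 to 4102 in liver and 3308 to 3696 in hippocampus, whereas both probe sets of Cox6a2, the heart and muscle form, were at or below the floor of 15 on every array. Cox8a was bright in both tissues, at 3266 to 4157 in liver and 4367 to 4486 in hippocampus, and Cox8b, the heart and muscle form, was below 0 on every array. Cox7a2 read 2570 to 2975 in liver and 1660 to 1887 in hippocampus. No probe set of the muscle form Cox7a1, of the lung form Cox4i2, or of the c-ring genes Atp5g2 and Atp5g3 was among the members, while Atp5g1 read 2288 to 2725 in liver and 1593 to 1710 in hippocampus. Some dim values belong to probe sets rather than to genes: 1 Cox7b probe set was below the floor throughout while the other read 629 to 710 in liver and 422 to 510 in hippocampus, and the chip A probe set of Cox7c read 6 to 34 and 29 to 43.

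Other genes of mitochondrial respiration were read from lists of their own. In liver, 0 genes of any of these lists were called on any oil diet. Between tissues, by the limits used above, 4 of 28 tested mitochondrial ribosome genes rose in liver and 0 fell, with a median of 0.60, where 20.3% of all tested probe sets were called higher and 29.6% lower. This count was 8 after quantile normalization and 11 with centred arrays, both run on the lists after seeing the data. The shares of all tested probe sets called higher in those settings were 24.3% and 26.0%. Of 16 assembly factors 5 rose and 2 fell (median 0.32), among them Sco2, a copper chaperone of complex IV, at 1233 to 1563 in liver and 355 to 409 in hippocampus (1.93), and Coa3, an assembly factor of the same complex, at 164 to 259 and 428 to 439 (-1.06). Of 10 tricarboxylic acid cycle genes 3 rose and 2 fell (median -0.47), and citrate synthase, Cs, read 218 to 366 in liver and 452 to 494 in hippocampus (-0.66, under the 2-fold limit). Of 14 genes that feed electrons or carry metabolites 6 rose and 4 fell. Etfb, which passes electrons from fat oxidation, read 646 to 1178 in liver and 124 to 137 in hippocampus (3.09). The adenine nucleotide carriers split, with Slc25a4 at 4 to 26 in liver and 1453 to 1629 in hippocampus on chip A, and Slc25a5 higher in liver (0.86 on chip B, under 2-fold). The vacuolar proton pump, a relative of the ATP synthase that acidifies lysosomes and synaptic vesicles, had 4 of 8 genes lower in liver and 0 higher (median -1.14). Of 8 regulators of mitochondrial biogenesis 2 rose, Ppara at 1158 to 1626 in liver and 20 to 139 in hippocampus and Esrra (1.09), and of 8 coenzyme Q and haem genes 2 rose, or 5 under either other scaling. The counts of the remaining lists moved by at most 1 under either scaling.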

How the data were processed

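For each array the authors deposited an intensity per probe set, in whole numbers that can be negative. How it was scaled and background-corrected, and with which software, is not given in the sources used here. The array files have 0 columns that belong to no sample. Symbols came from the platform annotation (5541 of 6529 probe sets on chip A and 2001 of 6540 on chip B have 1 symbol), and 55 control probe sets per chip stayed out of the tests. Values were floored at 15, 0.1 times a trimmed mean near 150, and log2 was taken. Probe sets whose mean reached the 50th percentile of their chip were tested with limma 3.58.1 in R 4.3.3 (lmFit, eBayes with intensity trend, per chip), adjusting over both chips by Benjamini-Hochberg. Liver was fitted as 4 diet groups (1 residual degree of freedom, prior degrees of freedom 2.17 and 2.05), and tissues after scaling each array to the same trimmed mean, with diet as covariate. Genes with several probe sets enter medians by the brightest. The scripts were tested on simulated data.

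Named are all tissue calls, members at the floor, isoform pairs and probe sets that disagree. The 5 largest rises and falls of each contrast were also to be named, but some of them are not given here. Other members were named after their values were seen. Members, lists and alternatives were chosen with earlier results of these data known. The alternatives were quantile normalization, a floor 0.5 or 2.5 times as high, no brightness filter, a bright subset, no trend, a mean over probe sets, additive oils, no diet term, and leaving out each RNA. The number of arrays and signal over background limit precision.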

Additional observations from a re-analysis of the deposited data

Results flagged for a closer look

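In 7 of 69 sets of 4 or 5 values of a tested probe set in a tissue, 1 value lay far from the others, and chance alone flags about 1 in 20 sets. No interaction between tissues was called. Diets differ within each set, so a value that stands apart can belong to its diet or to its RNA, which cannot be told apart with 1 RNA per oil diet.

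On oil diets, the dimmer Cycs probe set read 1435 in liver with fish oil, against 960 to 1040 in the other liver RNAs. Uqcrb read 670 in liver with fungal oil, against 857 to 917 in the others. The chip B probe set of Atp5a1 read 3487 in hippocampus with fish oil, against 3082 to 3145. In controls, Ndufa10 read -176 in the first liver control, against 91 to 171 elsewhere in liver. Ndufv3 read 1524 in the same control, against 1329 to 1356. Cyc1 read 2472 in the second liver control, against 2186 to 2224. Ndufa12 read 333 in the hippocampus control, against 516 to 561 on the oil diets, so every hippocampus ratio of that gene rests on that array.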

How the results depend on the processing

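Of the values that answer a comparison, 162 kept their direction and stayed within the limits set for a count or a median under the alternatives, and 11 did not. The median tissue difference over the genes was 0.58 and became 0.1250 with quantile normalization, and 0.9003 with arrays centred on the median and 0.4804 without family probe sets, both chosen after seeing the data. Leaving out 1 RNA gave 0.5438 to 0.6094. The 12 tissue calls became 20 with centred arrays, 42 with no fold limit and 3 of 14 on chip B alone, also chosen afterwards. The backgrounds with centred arrays and with no fold limit are given above. For chip B alone the share of all probe sets called is not given here, so that count has no background beside it. Without the brightness filter the liver fits called 1 member with fish oil, 1 with both oils, 2 for the mean of the oils and 1 between fungal and fish oil. These were Ndufb10 and Sdhd, whose controls both sit at the floor with no spread, and in that setting 2.51% to 6.92% of all 13069 probe sets were called. The interaction then called 1, Ndufs4 (0.44, limma adjusted p = 0.0190). Its log2 value was the same with the filter, and its SE fell from 0.11 to 0.04 without it. The share of all probe sets that this unfiltered interaction called is not given here, so the call has no background beside it. Signs turned for some of the 5 largest rises and falls of each contrast. Sdhc with fungal oil was 0.0973 and -0.5533 without the first or second control, and 0.0149 with additive oils. The dim Atp5b probe set with both oils was 0.6121 and -0.0893 without the first or second control. Between tissues, centred arrays turned Cox7a2l (0.0047 and 0.0728), Ndufa12 (0.0365) and Cox8a (0.0886). Members outside that selection also turned between tissues. With centred arrays these were Ndufa5 (0.11), the dimmer Cycs probe set (0.22) and the bright Atp5b probe set (0.27). With quantile normalization they included Cox6a1 (-0.87) and Ndufb3 (-0.65). Cyc1 and Uqcrb missed the 2-fold limit when the fungal oil or the fish oil RNA was left out, at 0.99 and 1.00. Where not given, the cause was not tested. With 1 liver control left out the liver diet fit has no residual degree of freedom, so those values carry no test. The tissues, taken from the same mice, were paired through diet in the fit, and without diet it called 12 members with a median of 0.5703. The share of all probe sets called without diet is not given here either. Between diets, no paired analysis was possible because each diet was fed to its own mice.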
